A study of Mus musculus with 6 samples.

Results

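The genes described here are the replication histone genes, which encode the H1, H2A, H2B, H3 and H4 proteins that package newly copied DNA. They were measured in polyadenylated RNA from the spleens of mice with a changed cyclin D3. Members were the protein-coding genes whose GENCODE M21 symbol begins with Hist1h, Hist2h, Hist3h or Hist4h. The annotation holds 67 such genes, and 60 of them were among the 24906 genes of the deposited table. By class, the table listed 6 of 6 H1 genes, 15 of 18 H2A genes, 17 of 18 H2B genes, 10 of 12 H3 genes and 12 of 13 H4 genes. Another 3 symbols of the same form belong to pseudogenes and were left out.

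RNA sequencing had been done on whole spleen cells of 3 D3TA mice and 3 WT mice, with 1 library per mouse. All mice were C57BL/6J and 12 to 16 months old. D3TA mice carry a T283A substitution in cyclin D3, a regulatory subunit of the kinases that move cells from G1 into S phase. The change was made with CRISPR/Cas9 in Ccnd3, and the line was kept as heterozygotes. Per the labels, animals of this age show severe myeloproliferative neoplasm, an overproduction of myeloid blood cells. WT mice were of matched age. The zygosity of the sequenced mice is not given in the sources used here. A germline allele is present in every cell of the animal, and the labels describe no sorting, so each library is a mixture of cells. Fewer cells of a type and less RNA per cell cannot be told apart in such bulk samples. Libraries are named D3TA-1 to D3TA-3 and WT-1 to WT-3 after the sample titles.

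Replication histone genes are transcribed mainly in S phase, when new chromatin needs histones in step with new DNA. Their mRNAs are unusual in animals because most end in a short stem-loop made by a special cleavage, and not in a poly(A) tail. The stem-loop is bound by SLBP, which guides processing, translation and, when replication ends, decay of the mRNA. Some of these genes also make polyadenylated mRNA from a signal further downstream, among others in differentiating cells. Poly-T beads, which hold on to poly(A) tails, had been used to purify the RNA of all 6 libraries. The reads counted here are therefore those of histone transcripts that were polyadenylated or carried along, and not the full histone mRNA of the cells.

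The 3′ stem-loop is the sequence that sets these genes apart from other mRNAs, so 7 examples are shown, chosen to cover every class and 6 forms of the stem-loop. They are DNA letters of the sense strand from GENCODE M21 transcripts, 5′ to 3′, with the 16 stem-loop bases in capitals and up to 5 flanking bases in lower case.
Hist1h1c: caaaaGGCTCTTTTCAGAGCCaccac
Hist2h2ac: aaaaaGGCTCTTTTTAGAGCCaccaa
Hist1h2bj: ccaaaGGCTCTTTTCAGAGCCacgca
Hist1h3c: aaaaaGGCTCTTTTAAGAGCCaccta
Hist1h3g: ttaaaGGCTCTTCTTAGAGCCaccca
Hist1h4i: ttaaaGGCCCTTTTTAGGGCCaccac
Hist1h4m: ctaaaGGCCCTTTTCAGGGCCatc
On GRCm38 the capitals lie at chr13:23739512-23739527 (plus strand) in Hist1h1c and at chr3:96220418-96220433 (minus) in Hist2h2ac. They lie at chr13:22043638-22043653 (plus) in Hist1h2bj and at chr13:23745047-23745062 (minus) in Hist1h3c. The Hist1h3g stem-loop is at chr13:23535889-23535904 (plus), that of Hist1h4i at chr13:22040966-22040981 (minus) and that of Hist1h4m at chr13:21812129-21812144 (plus). All 7 lie in the annotated 3′ UTR.

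A 16-base pattern of these letters, with GG, CTT, T, AG and CC fixed and any base at places 3, 4, 8, 10, 13 and 14, was searched on the sense strand of annotated transcripts. It occurred in 46 of the 67 members. Among the other protein-coding genes it occurred in 90, or 0.412%. The form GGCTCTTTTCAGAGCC, as in Hist1h1c and Hist1h2bj, was in 26 members of the H1, H2A, H2B and H3 classes. H4 genes had other forms, and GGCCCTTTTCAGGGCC, as in Hist1h4m, was in 7 members, all H4. The form with an A in the loop that Hist1h3c carries was in 6 members. Hist1h3g and Hist2h2ac each had a form found in no other member, as did Hist1h4a, named after its values were seen. In the 48 transcripts with the pattern after the coding end, the stem-loop began a median of 31 bases after that end, with a range of 21 to 58. Of the 21 members without the pattern, 17 had annotated transcripts that end less than 60 bases after the coding sequence, 13 of them at its end. For those, the annotation stops before the place where the other members have the stem-loop.

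The annotation gives 2 kinds of 3′ end. In 27 members, 26 of them listed, an annotated transcript ran more than 100 bases past the stem-loop or, in members with the pattern in no transcript, past the coding end. The other 40, of which 34 were listed, did not. These are called long and short ends below, and the split was made after the members' values had been seen. Hist1h2bp, named after its values were seen, counts as short by its transcript with the pattern, while another of its transcripts runs 150 bases past the coding end without it. In 14 of the 23 long members with the pattern, a poly(A) signal AATAAA lay after the stem-loop, against 0 of the 23 short members with the pattern. Short members had at most 74 bases there to search, and long ones 108 to 4884. This contrast was therefore largely set by the split. Hist1h1c, at chr13:23738808-23740367 (plus), ran 840 bases past its stem-loop. Hist1h4i, at chr13:22040636-22041362 (minus), ran 330 bases past it. Hist1h2bj, at chr13:22043214-22043676 (plus), ran 23 bases past it, and Hist1h4m, at chr13:21811746-21812147 (plus), 3 bases. Hist1h2bc, at chr13:23684199-23692908 (plus), had 742 bases after the coding sequence with no match.

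Members also share coding sequence with each other. Over the 60 listed members, the median share of 50-base transcript windows that also occur in another annotated gene was 49.4%, and for 100-base windows 32.5%. In 28 listed members at least 50% of the 50-base windows were shared. This share was 0% for Hist1h1a and Hist1h1b, 8.54% for Hist1h1c and 93.5% for Hist1h2ao. Of the 7 members not in the table, 5 had every 50-base window in another gene, and no listed member did. How the authors assigned reads that fit several genes, and whether strand was used, is not given in the sources used here, so values of members with near-identical copies are uncertain.

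Promoters were read from RefSeq (GRCm38.p6), from 250 bases before to 50 bases after the annotated start, for 62 of the 67 members (63 promoters). Shown are 3 of them, which belong to a member with a large spread between libraries, to the steadiest H1 gene and to the H4 gene with the highest level. CCAAT and TATAA, on either strand, are in capitals.
Hist1h2bj, chr13:22042948-22043247 (plus): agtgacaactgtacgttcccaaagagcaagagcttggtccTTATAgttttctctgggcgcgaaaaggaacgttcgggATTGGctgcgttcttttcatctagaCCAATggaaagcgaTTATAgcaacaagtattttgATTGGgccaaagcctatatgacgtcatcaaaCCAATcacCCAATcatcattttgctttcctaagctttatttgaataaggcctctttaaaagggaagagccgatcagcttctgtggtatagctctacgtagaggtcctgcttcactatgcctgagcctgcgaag
Hist1h1c, chr13:23738557-23738856 (plus): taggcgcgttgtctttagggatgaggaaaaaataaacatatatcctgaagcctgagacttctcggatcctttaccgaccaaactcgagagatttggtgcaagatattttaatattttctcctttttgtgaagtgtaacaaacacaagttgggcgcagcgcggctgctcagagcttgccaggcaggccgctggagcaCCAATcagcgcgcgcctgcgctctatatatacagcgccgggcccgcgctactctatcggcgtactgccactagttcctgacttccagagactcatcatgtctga
Hist1h4i, chr13:22041313-22041612 (minus): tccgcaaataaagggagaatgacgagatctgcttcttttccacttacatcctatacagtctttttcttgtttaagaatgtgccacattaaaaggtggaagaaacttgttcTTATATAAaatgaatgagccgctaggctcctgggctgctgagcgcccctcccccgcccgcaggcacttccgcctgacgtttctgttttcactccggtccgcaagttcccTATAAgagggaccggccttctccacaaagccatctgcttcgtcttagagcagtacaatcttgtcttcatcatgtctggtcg
CCAAT, the letters bound by the factor NF-Y, or its reverse complement ATTGG was in 54 of the 63 promoters (85.7%), against 37.4% of all 32851 RefSeq promoters of that length. It was in 6 H1, 18 H2A, 17 H2B and 10 H3 promoters but in only 3 H4 promoters, and the Hist1h4i promoter shows none. Hist1h2bj had 5 occurrences. TATAA or TTATA was in 50 member promoters (79.4%), against 24.9% of all. The octamer ATTTGCAT or ATGCAAAT, bound by POU factors, was in 14 (22.2%), which were 7 H2A and 7 H2B promoters, against 1.74% of all. H2A and H2B genes often stand head to head: 12 pairs, each of 1 H2A and 1 H2B gene, had starts within 500 bases on opposite strands, so their promoter windows overlap and are not independent. A match is a description of these letters and not of binding.

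Reads per library numbered 14944622 to 19456838. The deposited values are whole reads scaled by the authors with 1 factor for each library, and these normalized counts are used below for single genes. Sums over genes are given as RPM, reads per 1000000 reads assigned to genes. A count of 3 reads corresponds to a value of 2.59 to 3.36, which is the limit that a count of 0 allows. WT-2 stood apart: 33.9% of all listed genes were at 0 there, against 12.8% to 20.8% in the other 5 libraries. For the histone genes, 25 of 60 were at 0 in WT-2, and 1 to 7 in the others. The replication gene Fen1, named after its values were seen, was also at 0 in WT-2 and between 32.3 and 77.4 in the other libraries. Hemoglobin genes took more than 5% of the reads in D3TA-1, D3TA-2 and WT-3. Y-linked reads marked D3TA-3 (2725 reads) and WT-1 (2751), while the other libraries had at most 18.

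Histone genes together took 548, 386 and 156 RPM in the D3TA libraries, given here and below in the order of their numbers. The WT sums were 200.4, 199.8 and 238. The 3 WT libraries lay close together, while D3TA-1 and D3TA-2 were above all of them and D3TA-3 was below. The means were 363 ± 197 (SD) for the 3 D3TA and 213 ± 21.6 for the 3 WT libraries, a ratio of 1.71, and the groups overlapped. Without D3TA-3 the ratio was 2.20, and without D3TA-1 it was 1.27. For pooled non-polyadenylated RNA the D3TA libraries had the same order. Reads of 301 snRNA, snoRNA, scaRNA, misc_RNA and ribozyme genes, which mostly lack a poly(A) tail, summed to 137, 124 and 38.6 RPM in the D3TA libraries and to 93.2, 67.5 and 80.4 in the WT libraries. D3TA-1 and D3TA-2 were thus the highest and D3TA-3 the lowest in both sums. This order did not hold in the single kinds of RNA. snoRNA was lowest in WT-1 (19.1 RPM, against 20.8 in D3TA-3) and snRNA in WT-3 (6.94). For misc_RNA, WT-1 was highest (59.8) and WT-2 lowest (6.62). For scaRNA, WT-3 (5.60) was above D3TA-1 (5.08). The part of such RNA in the histone values was not tested.

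The order of the D3TA libraries was the same in each of the 5 classes. H1 genes, which encode the linker histones, summed to 170, 142 and 66.2 RPM in D3TA and 76.5, 93.8 and 85.4 in WT. H2A genes summed to 55.7, 44.7 and 13.4 in D3TA and stayed between 18.9 and 19.7 in WT. H2B genes summed to 127, 86.7 and 46.1 in D3TA and to 53.4, 32.6 and 64.9 in WT, where WT-2 and not D3TA-3 was the lowest library. H3 genes showed the widest span, with 55.7, 27.9 and 3.32 in D3TA and 10.3, 9.03 and 5.09 in WT. H4 genes summed to 140, 85.1 and 26.7 in D3TA and to 40.6, 45.0 and 63.3 in WT. The highest library was 16.8 times the lowest for H3, 5.25 times for H4, 4.14 times for H2A, 3.89 times for H2B and 2.57 times for H1. In every class D3TA-1 and D3TA-2 were above all 3 WT libraries. D3TA-3 was below all of them in H1, H2A, H3 and H4.

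**Figure D1:**
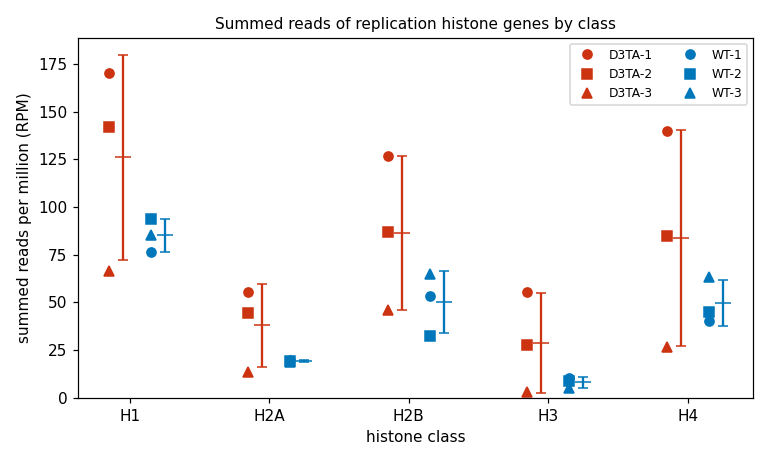
Summed RPM (vertical axis) of the replication histone genes of each class (horizontal axis), with 1 symbol per library and bars for the mean ± SD of 3 libraries. D3TA-1 and D3TA-2 are above every WT library in all 5 classes, and D3TA-3 is below every WT library in all but H2B.

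In the test over all genes, limma on log2(normalized count + 1), genes needed a value of at least 10 in at least 3 libraries. This left 15564 genes and 40 of the 60 members: 5 H1, 7 H2A, 11 H2B, 5 H3 and 12 H4. The 20 others were too low, 2 of the 40 (Hist1h2bj and Hist1h2bn) had no WT library at 10 or more and so passed through D3TA alone, and 20 had all 6 libraries at 10 or more. No member passed an adjusted p of 0.05 in limma, where 0.0% of all genes passed. The smallest adjusted p of any gene was 0.0945 and of any member 0.290, that of Hist1h2bj. An unadjusted limma p under 0.05 was reached by 5 of the 40 members, all higher in D3TA, beside 9.91% of all genes in either direction and 6.08% in that direction. None was lower, beside 3.83%. The 5 include both members that passed through D3TA alone. All 5 were at 0 in WT-2, where 9 of the 40 tested members were at 0. Log2 differences were above 0 in 36 of the 40 members, beside 54.5% of all genes. Their median was 0.67, against 0.06 over all genes, and by class it was 1.05 for H1, 0.51 for H2A, 0.88 for H2B, 0.93 for H3 and 0.56 for H4. All 3 D3TA values lay above all 3 WT values in 4 members, beside 8.18% of all genes, and in none did they lie below, beside 6.84%. Both members that passed through D3TA alone are among those 4, and all 4 were at 0 in WT-2.

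Other tests gave other counts. DESeq2 on the recovered reads gave an adjusted p under 0.05 to 5 of 55 members, all higher in D3TA, beside 2.54% of all genes and 1.83% of all genes called higher. These were Hist1h2ab, Hist1h2bk, Hist1h2bl, Hist1h2bn and Hist1h3g. All but Hist1h2ab had no WT library at 10 or more and are seen only because they are high in D3TA. All but Hist1h2bk were at 0 in WT-2, where Hist1h2bk was at 1.119. The count is therefore not evidence about the members as a set. edgeR's quasi-likelihood test and limma-voom called none, with 6 and 2 members at an unadjusted p under 0.05. The share of all genes at such a p was not taken for either test, so nothing is read from these counts. Without D3TA-3, limma called 2 members, Hist1h2bj and Hist1h2ao, both higher in D3TA, beside 1.97% of all genes and 1.59% of all genes called higher. At an unadjusted p under 0.05 it had 18 members, all higher in D3TA, beside 14.7% of all genes and 9.46% of all genes higher. In that fit 39 of the 40 members had a log2 difference above 0, a count for which no share over all genes was taken. The median of the members was 1.52. Without D3TA-1 the median was 0.08.

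**Figure D2:**
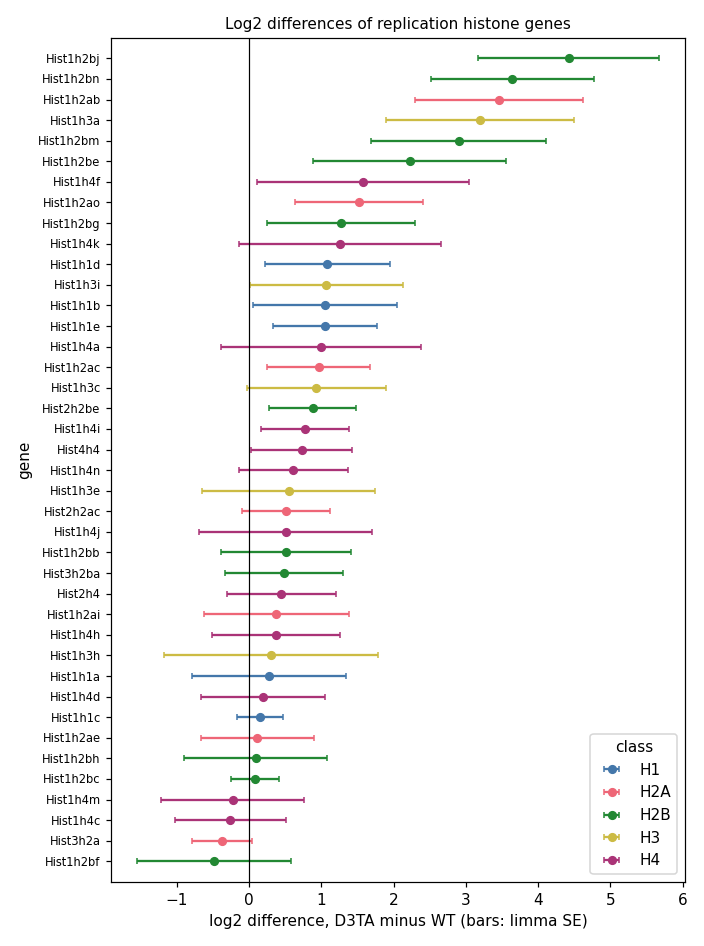
Log2 differences (horizontal axis, D3TA minus WT on log2(normalized count + 1), with the standard error from limma) of the 40 tested members (vertical axis), coloured by class. Of the 40 values 36 are above 0, with wide error bars.

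Members resembled each other in their order over single libraries. D3TA-1 was the highest library in 31 of the 40 members, beside 26.9% of all genes. D3TA-3 was the lowest in 20 members, beside 11.0% of all genes, and WT-2 in 14, beside 22.4%. D3TA-1 was above every WT library in 33 members (32.5% of all genes) and D3TA-2 in 30 (24.7%). D3TA-3 was below every WT library in 20 members (19.8% of all genes) and above every WT library in 4 (23.8%). D3TA-1 and D3TA-2 above every WT library together with D3TA-3 below every one was the pattern of 15 members, beside 2.17% of all genes. This is the pattern of the summed histone reads above, taken from the same values, and members that share sequence are not independent. The count is therefore a description and not a test. Relative to the WT mean, the median member stood at 1.85, 1.19 and -0.83 on the log2 scale for the D3TA libraries in order. The same medians over all genes were 0.07, 0.05 and 0.06.

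**Figure D3:**
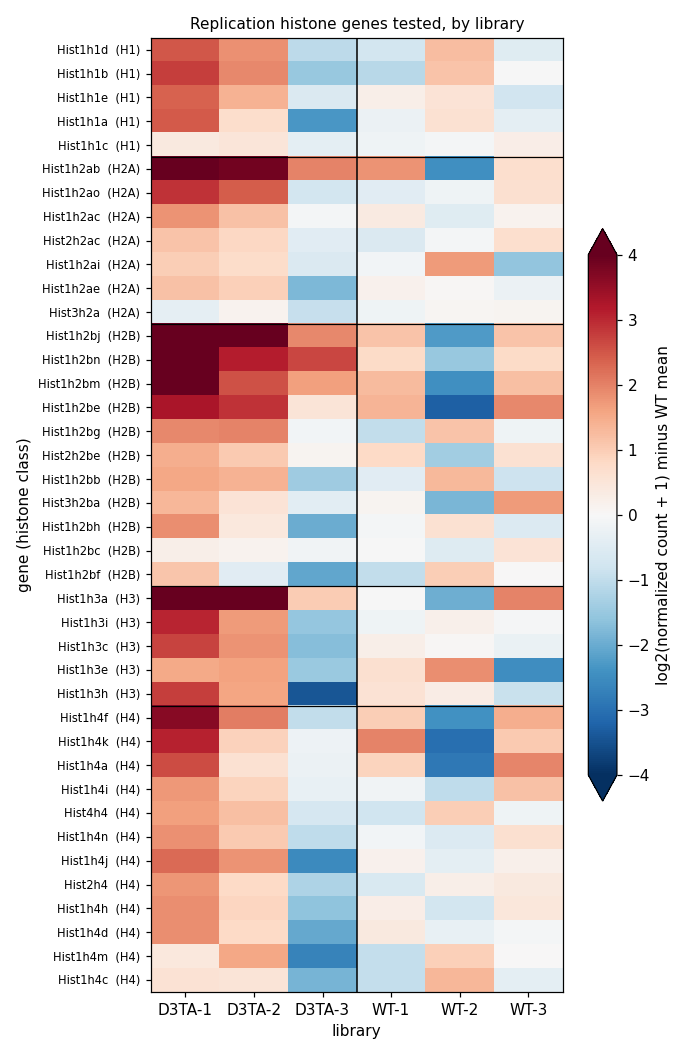
Log2(normalized count + 1) minus the WT mean (colour; values beyond 4 share the end colours) for the 40 tested members (rows, by class) in each library (columns). Red fills most of the D3TA-1 and D3TA-2 columns and blue most of the D3TA-3 column, and the 9 members at 0 in WT-2 show as blue cells in that column.

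H1 genes encode the linker histones, which bind DNA between nucleosomes. Hist1h1c, the H1 gene known for polyadenylated mRNA in differentiated cells, had the highest level of any member, with a mean of 49.4 RPKM (RPM divided by the annotated exon length in kilobases). Its normalized counts were 1551, 1654 and 902 in the D3TA libraries and 1054, 1126 and 1437 in the WT libraries, so the groups overlapped and the highest library was 1.83 times the lowest. The log2 difference was 0.15 ± 0.32 (SE; limma adjusted p = 0.908). Because the other members varied more, the share of Hist1h1c in all histone reads ran from 17.0% in D3TA-1 (exact 95% binomial interval 16.2% to 17.8%) to 38.3% in D3TA-3 (36.5% to 40.2%). These intervals cover counting error only.

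The other H1 genes had a wider spread. Hist1h1b, at chr13:21779883-21780625 (minus), an H1 gene of dividing cells, had 406, 229 and 19.9 in D3TA and 26.7, 131 and 59.0 in WT. D3TA-1 and D3TA-2 were above and D3TA-3 below every WT library, and the log2 difference was 1.05 ± 0.997 (SE; limma adjusted p = 0.760). Hist1h1d had 454, 289 and 38.9 in D3TA and 47.8, 194 and 57.0 in WT, with a log2 difference of 1.09 ± 0.86. Its annotated exon is 7425 bases long, so its level per kilobase was low, at 1.46 RPKM. Hist1h1e had 277, 143 and 35.4 in D3TA and 64.0, 78.3 and 30.9 in WT, and here WT-3 was the lowest library. The annotated interval of Hist1h1e, chr13:23620629-23622558 (minus), overlaps that of Hist1h2be on the same strand. Hist1h1a was lower, with 147, 42.4 and 4.32 in D3TA and 22.0, 40.3 and 19.3 in WT. The remaining H1 gene, Hist1h1t of the testis, named after its values were seen, was at 0 in 5 libraries and at 1.93 in WT-3.

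H2A proteins pair with H2B in the nucleosome core. Hist1h2ab, at chr13:23751126-23751598 (plus), had 127, 78.8 and 20.7 in D3TA and 18.1, 0 and 7.73 in WT. All D3TA values lay above all WT values, though D3TA-3 exceeded WT-1 by little, and 58.0% of its 50-base windows occur in other genes. The log2 difference was 3.46 ± 1.17 in limma (adjusted p = 0.391) and 3.12 in DESeq2 (adjusted p = 0.0316). Without WT-2, where it was at 0, limma gave 2.23 (adjusted p = 0.577). Hist1h2ao had 204, 145 and 15.6 in D3TA and 19.1, 23.5 and 41.6 in WT, so that D3TA-3 was below every WT library. Its log2 difference was 1.52 ± 0.89 in limma (adjusted p = 0.622) and 2.65 without D3TA-3 (adjusted p = 0.0497), but 0.84 without D3TA-1 (adjusted p = 0.9995). Hist2h2ac, on chromosome 3, had 100.7, 80.8 and 32.8 in D3TA and 29.6, 42.5 and 72.5 in WT, and D3TA-3 lay among the WT values. Hist3h2a, named after its values were seen, was the tested H2A gene with a log2 difference below 0 in limma, with 110, 158 and 74.3 against 125, 149 and 152. Of the 15 listed H2A genes 8 were too low to be tested.

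H2B genes with large differences stood beside one of the steadiest genes. Hist1h2bj and Hist1h2bn are the 2 members tested in limma with no WT library at 10 or more. They were tested only because they are high in D3TA, and their differences are given as values. Hist1h2bj had 326, 185 and 17.3 in D3TA and 9.55, 0 and 9.66 in WT. The groups did not overlap, and D3TA-1 was more than an order of magnitude above D3TA-3. The log2 difference was 4.42 ± 1.25 in limma (adjusted p = 0.290). It was 5.67 without D3TA-3 (adjusted p = 0.0256), 3.59 without D3TA-1 (adjusted p = 0.942) and 3.29 without WT-2 (adjusted p = 0.499). DESeq2 gave an adjusted p of 0.0587. Hist1h2bn had 98.5, 24.2 and 17.3 in D3TA and 3.82, 0 and 3.87 in WT, again without overlap. Its log2 difference was 3.64 ± 1.13 in limma (adjusted p = 0.336) and 4.16 in DESeq2 (adjusted p = 0.0062). Without WT-2 limma gave 2.89 (adjusted p = 0.478), and without D3TA-1 2.91 (adjusted p = 0.9995). Of its 50-base windows 86.4% occur in other genes.

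A pair of H2B genes below the limit for limma were called by DESeq2. Hist1h2bl was at 50.3, 35.4 and 0.864 in D3TA and at 0 in all WT libraries, so the D3TA mean was at least 9.49-fold higher than a floor of 3 reads per WT library (DESeq2 adjusted p = 0.00285). Hist1h2bk had 99.6, 68.7 and 7.78 in D3TA and 6.69, 1.119 and 5.80 in WT (DESeq2 adjusted p = 0.0097). D3TA-3 was near the WT level in both. Hist1h2bc contrasts with these: it had 551, 515 and 420 in D3TA and 459, 325 and 673 in WT, a log2 difference of 0.08 ± 0.34 (limma adjusted p = 0.954). Its mean level of 25.4 RPKM was the highest of the H2B genes. Hist3h2ba, on chromosome 11, had 187, 109 and 55.3 in D3TA and 81.2, 20.1 and 246 in WT, with the highest value in WT-3.

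Head-to-head H2A and H2B neighbours could have very different levels. Hist1h2bj and Hist1h2ag, whose starts are 270 bases apart, had 326 and 30.0 in D3TA-1 and 9.66 and 1.93 in WT-3. Hist1h2bc and Hist1h2ac, 251 bases apart, had 551 and 69.6 in D3TA-1 and 420 and 18.2 in D3TA-3. Hist1h2ac had its highest value in D3TA-1 and its lowest, 13.4, in WT-2, while the libraries of its neighbour stayed within 2.07 times of each other. Hist1h2bl and Hist1h2ai, 279 bases apart, had 0 and 45.9 in WT-2, the library where Hist1h2ai was highest. These 2 values are uncertain, since 82.8% and 90.1% of their 50-base windows occur in other genes and WT-2 stood apart. Hist1h2ag, Hist1h2ac and Hist1h2ai were named after their values were seen. Of the 12 pairs 11 had both genes in the table.

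H3 forms the nucleosome core with H4 and carries many of the tail modifications. Hist1h3c, at chr13:23744973-23745602 (minus), had the highest H3 level, 8.35 RPKM. Its values were 260, 136 and 11.2 in D3TA and 45.9, 40.3 and 31.9 in WT. The highest library was 23.2 times the lowest, both of them D3TA, and the log2 difference was 0.93 ± 0.96 (limma adjusted p = 0.782). Hist1h3i had 150, 58.6 and 5.19 in D3TA and 15.3, 20.1 and 16.4 in WT, and D3TA-3 was again below every WT library. Hist1h3h had 72.8 and 31.3 in D3TA-1 and D3TA-2, was at 0 in D3TA-3, and had 15.3, 12.3 and 4.83 in WT. Hist1h3a had 82.5, 68.7 and 6.92 in D3TA and 2.87, 0 and 14.5 in WT, a log2 difference of 3.20 ± 1.30 (limma adjusted p = 0.454) that was 2.21 without WT-2. Hist1h3g, among the members with a stem-loop form of their own, had 135, 79.8 and 4.32 in D3TA and 7.64, 0 and 2.90 in WT. It was too low for limma, and DESeq2 gave a log2 difference of 4.35 (adjusted p = 0.00445).

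H4 was the class with every listed gene tested, and none of the 12 reached an unadjusted limma p under 0.05, beside 9.91% of all genes, a share at which 0 of 12 says little. Hist1h4i had 1105, 607 and 266 in D3TA and 299, 161 and 738 in WT. D3TA-1 was the highest library and WT-2 the lowest, WT-3 was above D3TA-2, and the log2 difference was 0.77 ± 0.61 (limma adjusted p = 0.708). Its mean level of 43.2 RPKM was second to Hist1h1c. Hist1h4m had 66.4, 145 and 6.92 in D3TA and 24.8, 95.1 and 49.3 in WT, so D3TA-2 was highest and D3TA-3 lowest. Hist1h4c had 145, 137 and 25.9 in D3TA and 49.7, 244 and 74.4 in WT, and its highest value was in WT-2. Both had log2 differences below 0, at -0.23 ± 0.99 and -0.26 ± 0.77, and both were above 0 without D3TA-3, at 0.99 and 0.54. Hist1h4f had 66.4, 21.2 and 1.73 in D3TA and 9.55, 0 and 13.5 in WT.

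Members with long and short annotated 3′ ends are set side by side here. The 26 listed long members summed to 356, 274 and 138 RPM in D3TA and to 171, 163 and 209 in WT. The 34 short members summed to 193, 112 and 17.7 in D3TA and to 29.1, 36.3 and 28.6 in WT. The order of the D3TA libraries was the same, but the highest library was 2.58 times the lowest for long ends and 10.9 times for short ends. The long sum is carried by Hist1h1c, Hist1h4i and Hist1h2bc. Without the 3 members with the most reads of each kind, a setting chosen after the values were seen, the ratios were 4.95 for long and 9.19 for short ends. Among single tested members with no library at 0, the ratio had a median of 8.69 over 18 long members, from 1.83 to 44.0, and of 12.7 over 12 short members, from 3.40 to 34.0. The 2 groups also differed in shared sequence, with a median of 24.7% of 50-base windows in other genes for long and 65.3% for short ends. Median levels were 2.004 and 3.68 RPKM. The median log2 difference was 0.53 over the 20 tested long members and 0.99 over the 20 tested short members. A test of the difference between the 2 kinds was not made, since they were set after the values were seen.

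**Figure D4:**
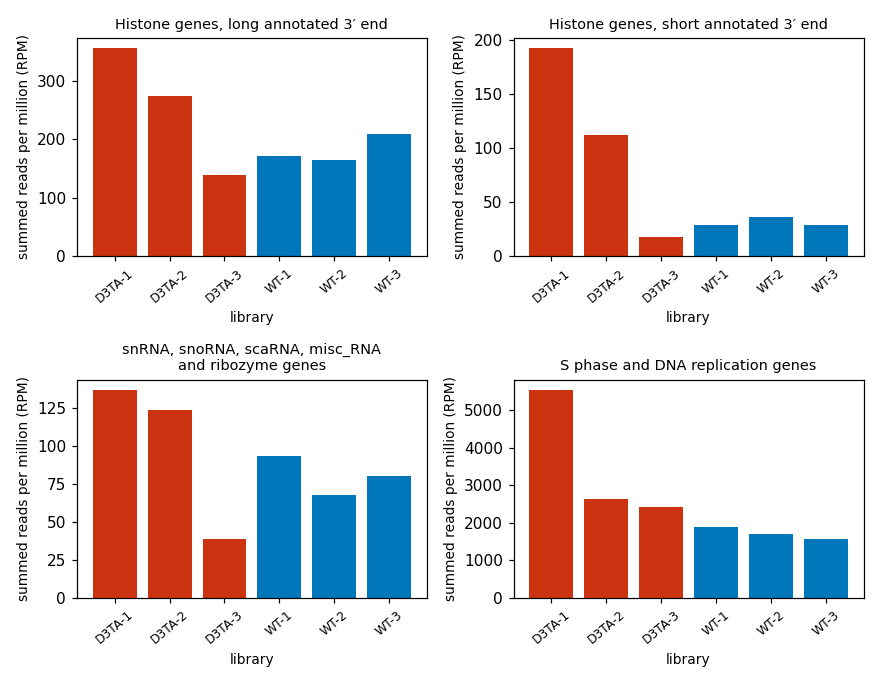
Summed RPM (vertical axes, each from 0) in the 6 libraries (bars) for histone genes with long and short annotated 3′ ends, for small RNA genes that mostly lack a poly(A) tail, and for S phase and DNA replication genes. D3TA-3 is the lowest bar in the first 3 panels and is above the WT bars in the panel of S phase genes.

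Genes of S phase, the time when histones are made, had another profile in D3TA-3. The list of 30 S phase and DNA replication genes summed to 5544, 2626 and 2430 RPM in D3TA and to 1893, 1703 and 1557 in WT, without overlap. All 30 had log2 differences above 0, with a median of 0.91, and 16 reached an unadjusted limma p under 0.05, all higher in D3TA. Beside these counts and those of the lists that follow, 54.5% of all genes were above 0, and 9.91% reached such a p, with 6.08% higher in D3TA. In D3TA-3 their median was 0.38 above the WT mean on the log2 scale and 28 of 30 were above it. For the histone genes that median was -0.83 and 7 of 40 were above. Over all genes it was 0.06, and 8538 of 15564 were above. Not 1 of the 30 was below every WT library in D3TA-3, against 20 of the 40 histone genes and 19.8% of all genes. Pola1, a subunit of the polymerase that starts DNA strands, had 899, 420 and 541 in D3TA and 299.9, 229 and 219 in WT (log2 difference 1.25 ± 0.36). Mcm6, part of the replicative helicase, had 5262, 2707 and 3442 in D3TA and 2346, 1304 and 1302 in WT (1.21 ± 0.35). In both, D3TA-3 was above D3TA-2.

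G2 and mitosis genes behaved likewise: all 20 were above 0, with a median of 1.39, and 19 had an unadjusted limma p under 0.05. The D3TA-3 median was 0.67 above the WT mean. Bub1, a spindle checkpoint kinase, had 1056, 649 and 420 in D3TA and 195, 169 and 259 in WT. Cenpe, a kinetochore motor, had 2531, 1042 and 443 in D3TA and 321, 244 and 97.6 in WT. All values of both genes were higher in D3TA.

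Genes that make and remove histone mRNA were nearer to the background. Of 28 measured genes for histone gene transcription, 3′ processing and mRNA decay, 17 were above 0 and 11 below, with a median of 0.15. Of these, 1 reached an unadjusted limma p under 0.05. Slbp, the stem-loop binding protein gene, had 4982, 2654 and 1720 in D3TA and 1651, 2411 and 2023 in WT, so D3TA-1 was highest and the groups overlapped (log2 difference 0.50 ± 0.39). Npat, the coactivator of histone gene transcription, had 440, 279 and 265 in D3TA and 310, 261 and 132 in WT (0.53 ± 0.41). Tut7, which adds uridines to RNA ends, had 1651, 1291 and 838 in D3TA and 809, 580 and 584 in WT (0.90 ± 0.33). Eri1, the nuclease that trims the stem-loop end, had 1565, 1035 and 1171 in D3TA and 891, 740 and 1001 in WT (0.51 ± 0.29). Tut7 and Eri1 had all D3TA values above all WT values.

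Replication-independent variants, most of whose genes make ordinary polyadenylated mRNA, had 9 of 11 log2 differences above 0, with a median of 0.21 and none at an unadjusted limma p under 0.05. H2afx, the variant that is phosphorylated at DNA breaks, had 7834, 3738 and 2541 in D3TA and 2605, 2151 and 2290 in WT (0.85 ± 0.39). Cenpa, the centromeric H3, had 4493, 3248 and 1622 in D3TA and 892, 1012 and 3246 in WT (limma adjusted p = 0.568). Of 18 histone chaperone genes 16 were above 0, with a median of 0.36 and 3 at an unadjusted limma p under 0.05. Hjurp, the chaperone of CENP-A, had 3849, 2362 and 1783 in D3TA and 1074, 668 and 734 in WT (1.65 ± 0.35, limma adjusted p = 0.175). Asf1b, which carries H3 and H4, had 2046, 925 and 817 in D3TA and 525, 379 and 599 in WT (1.23 ± 0.38). Every D3TA value of both genes was above every WT value.

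The cell mixture also differed between libraries, and the lymphocyte markers of spleen were present in all of them. B cell markers (10 of 10 measured, none at 0) summed to 6818 to 12022 RPM in D3TA and 12293 to 28319 in WT, and T cell markers (10 of 10, none at 0) to 273 to 991 and 635 to 1204. Erythroid markers (17 of 18 measured, none at 0) summed to 72845, 70994 and 20285 in D3TA. In WT they summed to 17901, 15302 and 67310. WT-3 was thus near D3TA-2 in this sum, but hemoglobin genes make up most of it. They took 6.57% of all reads in WT-3 and 6.75% in D3TA-2. With each marker weighted alike, the mean log2 level was 14.0, 13.0 and 11.1 in D3TA and 11.4, 11.2 and 12.1 in WT. The histone sum was 238 RPM in WT-3 and 386 in D3TA-2. The median of the erythroid markers relative to the WT mean was 2.56, 1.56 and -0.43 in the D3TA libraries. This is the order of the histone genes, and also that of the S phase, G2 and mitosis, neutrophil precursor and megakaryocyte lists. Neutrophil precursor markers (12 of 12, with Cebpe at 0 in WT-2) summed to 2411 to 14449 in D3TA and 368 to 578 in WT, and D3TA-3 was lowest of the D3TA libraries. Megakaryocyte markers (9 of 10 listed, none at 0) summed to 372 to 794 and 265 to 369. The part of these cells in the histone values was not tested.

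Within subsets of libraries the sign of the histone difference followed the place of D3TA-3, and with 1 or 2 libraries on each side these values have no test. Among the 3 libraries with more than 5% hemoglobin reads, D3TA-1 and D3TA-2 against WT-3, the median member log2 difference was 1.52, beside 0.01 over all genes. There 36 of 40 members were higher in D3TA. Among the 3 libraries below that share, D3TA-3 against WT-1 and WT-2, the median was -0.82, beside 0.05 over all genes, and 12 of 40 members were higher. The share of all genes higher in D3TA was not taken in these subsets. In the libraries with more than 100 Y-linked reads, D3TA-3 against WT-1, the median was -0.79, and in the 4 others it was 1.58. The medians over all genes were 0.009 and 0.07. Histone RNA was thus higher in D3TA in 2 of the 4 subsets and lower in the other 2, where D3TA-3 alone stands for D3TA. Both splits use the same libraries and are not independent.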

How the data were processed

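Polyadenylated RNA of spleen cells was measured in 3 D3TA and 3 WT libraries. Per the submitters' processing notes, CASAVA, FastQC, Trim Galore, HISAT2 and DESeq2 were used with build mm10. Per the labels' protocols, RNA was taken up on poly-T beads, fragmented and primed with random hexamers. The counting program, annotation and strand setting are not given in the sources used here. The deposited signal values are read counts scaled by the authors with 1 size factor for each library. Dividing by the step of each library gave whole reads for 100.0% of 149436 values (tolerance 0.001). Group and library come from the sample labels. Gene names and biotypes come from GENCODE M21 on GRCm38 (24895 of 24906 identifiers matched).

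The test was limma 3.58.1 in R 4.3.3 (trend and robust) on log2(value + 1), 2-sided, with Benjamini-Hochberg adjustment over the 15564 genes at 10 or more in at least 3 libraries, and a threshold of 0.05. For low genes, a log2 difference on this scale can be smaller or larger than that of DESeq2. It was 4.42 against 4.77 in Hist1h2bj and 3.46 against 3.12 in Hist1h2ab, both at 0 in WT-2. Checks used edgeR 4.0.16 (quasi-likelihood), DESeq2 1.42.0 and limma-voom on recovered reads, other scalings, filters and pseudocounts, each library left out, and terms for replicate number, Y-linked reads and hemoglobin. The limma script was tested on simulated data. The members and lists were chosen with earlier results of these data known, so counts over them are descriptions. Named members were, per class, the 3 tested ones with the highest RPKM, the 2 with the smallest p, and any that DESeq2 called. Of each list other than the cell type markers, the 2 genes with the smallest p were named, besides Slbp and Npat. The stem-loop was searched only in annotated transcripts, not in the 100 bases after them.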

Additional observations from a re-analysis of the deposited data

How the results depend on the processing

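Each group had 3 libraries, 20 of the 60 members were too low to be tested and 10 of the 40 tested had a library at 0. Of all genes, limma called 0 as reported, 44 with no filter on low values, 15 with a term for Y-linked reads and 11 with a term for hemoglobin, and DESeq2 called 472. Leaving out 1 library gave 0 to 306 genes and 0 to 2 members, with the highest counts of both without D3TA-3, and DESeq2 called 5 members. The other settings, edgeR and limma-voom among them, called no gene. The median member log2 difference stayed above 0 in all 20 alternatives, from 0.08 without D3TA-1 to 1.52 without D3TA-3, with 0.29 under the hemoglobin term and 1.31 in DESeq2. The ratio of summed reads ran from 1.27 to 2.20. The cause was not tested.

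Replicate numbers did not pair the libraries: same-numbered D3TA and WT libraries had correlations of deviations of -0.06, -0.005 and -0.13. With a replicate block, limma called 0 genes and 0 members, and the median stayed at 0.67.

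Of 630 values of named genes under alternatives, 20 reversed direction and 600 kept direction and call. Under the hemoglobin term Hist1h1c was at -0.057, Hist1h1a at -0.28, Hist1h2bc at -0.11, Hist3h2ba at -0.17 and Hist1h3h at -0.41. Hist3h2ba was at -0.014 in edgeR, Hist1h3h at -0.25 in limma-voom, and Hist1h4m at 0.36 in edgeR and 0.37 in DESeq2. Leaving out 1 library gave -0.014 to 0.42 for Hist1h1c, -0.82 to 1.58 for Hist1h1a, -0.18 to 0.35 for Hist1h2bc, -0.44 to 1.34 for Hist3h2ba, -0.93 to 2.18 for Hist1h3h, -1.11 to 0.99 for Hist1h4m and -0.74 to 0.54 for Hist1h4c. The stricter stem-loop pattern with a further fixed T left 44 of the 46 members with a match and 28 other genes. A search of the 100 bases after each annotated end was not run.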
